A study of Mus musculus with 64 samples.

Results

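MIWI2, the protein encoded by *Piwil4*, is one of the mouse PIWI proteins. It is loaded with small RNAs called piRNAs in fetal male germ cells, enters the nucleus and guides DNA methylation to transposons, while its partner MILI, encoded by *Piwil2*, cuts transposon transcripts in the cytoplasm and makes the piRNAs that MIWI2 carries. Male mice without MIWI2 are sterile because their germ cells are lost during meiosis. Here whole testes of the *Miwi2* line at P10.5, the age in days after birth, were compared, with 2 libraries labelled *Miwi2*-/- against 2 labelled *Miwi2*+/-. They were chosen by their labels alone and make up 4 of the 64 samples of the series and 4 of its 47 RNA-Seq libraries.

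The study asked how the repressor MORC1 relates to other factors that silence transposons in the male germ line, and sequenced testes of *Dnmt3l* and *Miwi2* mutants beside its *Morc1* mutants. Each library of the *Miwi2* line came from the polyA RNA of 1 mouse, prepared with a TruSeq v2 kit that does not mark strand, and the starting RNA of mutants and controls was matched. The strain of the line and the way its allele was made are not given in the sources used here. For the *Morc1* line, the methods give the FVB/N background, and a part of strain in differences between lines was not tested. The other P10.5 testis libraries used for comparison were 3 *Dnmt3l* KO, 3 *Dnmt3l* het and 3 *Dnmt3l* WT libraries, and 3 *Morc1* KO, 2 *Morc1* het and 1 *Morc1* WT library. In a whole testis, fewer cells of a type and less RNA per cell cannot be told apart.

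The 4 libraries had similar depth, with 35743634 to 37207775 reads counted on genes. Of the 26385 genes listed, 15997 passed the filter on low counts and were tested. Counts of every pair of libraries differed by more than sampling noise, with a lowest chi-square per gene of 9.01. The spread of the log2 ratio between libraries, as an SD over genes, was 0.266 and 0.273 within the groups and 0.359 to 0.398 between them. Germ cell genes were well represented in all 4 libraries, with 77.4 to 81.9 RPKM (reads scaled to exon length and to mapped reads) of the RNA helicase gene *Ddx4* and 136.9 to 141.7 RPKM of the RNA-binding protein gene *Dazl*. *Amh*, the Sertoli cell hormone gene, had 91.7 to 107.7 RPKM.

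*Piwil4* (ENSMUSG00000036912, mm9 chr9:14500674-14545177, minus strand) did not fall in the libraries labelled *Miwi2*-/- and was higher there. It had 941 and 1034 reads, or 6.65 and 7.01 RPKM, in the *Miwi2*+/- libraries and 1558 and 1636 reads, or 10.7 and 11.5 RPKM, in the libraries labelled *Miwi2*-/-. Both libraries labelled *Miwi2*-/- lay above both *Miwi2*+/- libraries, as they did for 29.7% of all genes tested. The log2 difference was 0.69 ± 0.074 (SE; adjusted p = 0.000746, edgeR). The 15 P10.5 testis libraries of the other lines, without the preliminary batch, held 1.34 to 3.96 RPKM, so all 4 libraries of the *Miwi2* line were above them. Sorted germ cells of the *Morc1* line at E16.5, when MIWI2 acts, held 71.5 and 88.6 RPKM in *Morc1* het and 86.9 and 94.6 RPKM in *Morc1* KO libraries. These were made from total RNA depleted of ribosomal RNA, and their levels cannot be compared directly with those of the polyA libraries. An allele that leaves a transcript keeps reads, and the deposited values are per gene and not per exon, so these reads do not settle which libraries lacked the protein. Every direction below follows the labels.

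**Figure D1:**
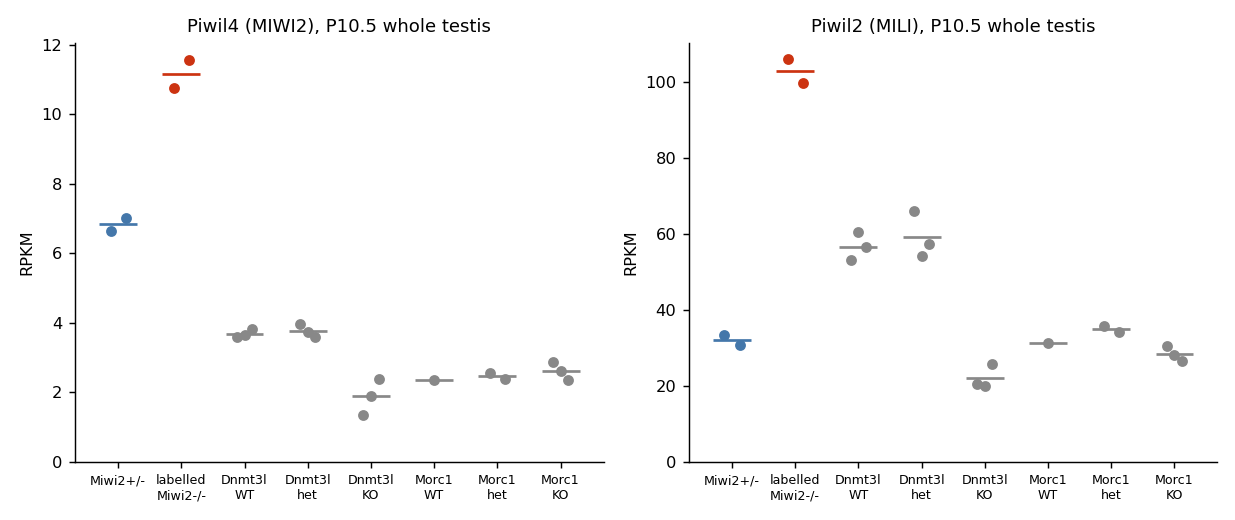
Levels of *Piwil4* (left) and *Piwil2* (right) in RPKM in each P10.5 whole testis library, by line and genotype, without the preliminary batch. Points are libraries and bars are group means. The libraries labelled *Miwi2*-/- hold 10.7 and 11.5 RPKM of *Piwil4* and 105.9 and 99.6 RPKM of *Piwil2*, above all other libraries in both panels.

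In the comparison of labelled genotypes, 197 of the 15997 genes tested (1.23%) passed an adjusted p of 0.05 in edgeR and are called below. Of these, 116 (0.725%) were higher and 81 (0.506%) lower in the libraries labelled *Miwi2*-/-. The rises were the larger changes, since 63 called genes rose by more than 1 on the log2 scale and 22 fell by more than that. Over all genes tested, the median log2 fold change was 0.01, and 52.1% of genes had groups that did not overlap (29.7% with the libraries labelled *Miwi2*-/- higher). An unadjusted p under 0.05 was reached by 3229 genes (20.2%). Fits without 1 library leave 1 library in a group and take their spread from the other pair alone. For this comparison they are therefore used for effect sizes, and not for numbers of calls. The count was 110 of 16414 (0.67%, and 0.396% lower) with a spread shared with the *Dnmt3l* and *Morc1* lines. This is called the fit with 3 lines below. A block for the replicate number gave 4503 calls (28.1%), and the calls below are without it unless stated. The labels do not say whether same-numbered libraries were paired.

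Among genes of the piRNA pathway, 3 of the 26 tested were higher, 1 was lower and 22 were not called. Of all genes tested, 0.725% were higher and 0.506% lower. The median log2 fold change was 0.08. The largest change was in *Piwil2* (ENSMUSG00000033644, mm9 chr14:70772287-70828901, minus strand), the gene for the piRNA-making partner MILI. It had 33.3 and 30.8 RPKM in the *Miwi2*+/- libraries and 105.9 and 99.6 RPKM in the libraries labelled *Miwi2*-/-. The groups stood far apart, and the libraries labelled *Miwi2*-/- also exceeded the 9 control libraries of the other lines, which held 31.3 to 65.9 RPKM. The log2 fold change was 1.66 ± 0.081 (SE; adjusted p = 1.39e-06, edgeR). Together with *Piwil4*, both PIWI genes that act before birth were therefore higher in the libraries labelled *Miwi2*-/-.

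The piRNA gene that fell was *Gtsf1*, which encodes a zinc-finger cofactor of PIWI proteins. It had 37.3 and 31.7 RPKM in the *Miwi2*+/- libraries and 21.9 and 20.4 RPKM in the libraries labelled *Miwi2*-/-. The lower pair lay within the 18.0 to 23.7 RPKM of the other lines' controls and the *Miwi2*+/- pair lay above it. The log2 fold change was -0.73 ± 0.092 (SE; adjusted p = 0.00251, edgeR). *Tdrd9*, a helicase gene that works with MIWI2 and that overlaps *BC048943* on the other strand, had 12.9 and 13.7 RPKM against 17.0 and 17.2 RPKM, a log2 fold change of 0.34 (adjusted p = 0.0341, edgeR). Its call was lost without a filter on low counts (adjusted p = 0.0676), with a stricter filter (adjusted p = 0.053) and in the fit with 3 lines (adjusted p = 0.27). The log2 fold change was 0.29 without *Miwi2*+/- replicate 1 and 0.33 without *Miwi2*-/- replicate 2.

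The other 22 piRNA genes were not called. Of all 26, 10 had an unadjusted p under 0.05 in edgeR, as did 20.2% of all genes tested. DESeq2 without its independent filter called 6, where it called 1.48% of all genes. The Tudor protein gene *Tdrd1*, whose product binds MILI, had a log2 fold change of 0.29 (adjusted p = 0.0632, edgeR), and *Fkbp6*, which encodes a chaperone partner of PIWI proteins, had 0.28 (adjusted p = 0.091). *Mov10l1*, the helicase gene needed to make piRNA precursors into piRNAs, had 0.21, and the mitochondrial scaffold gene *Asz1* had -0.22. *Ddx4* had -0.02 and *Mael* -0.06, both genes of germ granule proteins. *Piwil1*, which encodes the later-acting PIWI protein MIWI, held 1.35 to 1.64 RPKM over the 4 libraries, with a log2 fold change of 0.11.

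In the fit with 3 lines, the pathway's genes differed between mutants. In *Dnmt3l* KO testes, 23 of the 26 were lower and 1 was higher, with a median of -0.97, where 59.2% of all genes were called. In *Morc1* KO testes 9 were lower, with a median of -0.25, where 8.08% of all genes were called. The test of the difference was passed by 22 members with a higher and 2 with a lower effect in the *Miwi2* line than in the *Dnmt3l* line, against 35.8% of all genes in either direction. Against the *Morc1* line it was passed by 4 higher and 1 lower, against 2.18% of all genes (0.536% lower). Both tests used the same *Miwi2* libraries. Over all genes, the number passing the test against the *Morc1* line changed with the settings of the fit, as given at the end. The same test gives the counts against the *Morc1* line for the lists below. For *Piwil2*, the log2 effect in the *Miwi2* line exceeded that in the *Dnmt3l* line by 2.95 (adjusted p = 1.02e-10, edgeR) and that in the *Morc1* line by 1.89 (adjusted p = 2.59e-07). For *Gtsf1*, the differences were -0.36 (adjusted p = 0.0446) and -0.69 (adjusted p = 0.0168).

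Genes next to *Piwil2* were called as well. The window was chosen after its change had been seen, so *Piwil2* itself is left out of the counts. Of the 32 other genes tested within 1 Mb, 5 (15.6%) were called, against 18 of 510 on the rest of chromosome 14 (3.53%). Over all genes tested, 1.23% were called. With *Piwil2*, chromosome 14 had 24 of 543 called (4.42%), the highest share of any chromosome. The neighbours were *Slc39a14*, *Polr3d*, *Bmp1*, *Phyhip* and *Entpd4*. Within 5 Mb, 8 of 78 genes (10.3%) were called, *Stc1*, *Adamdec1* and *Ptk2b* among them. Around *Piwil4*, which is counted in its own window, the gene itself was the 1 call among 36 tested within 5 Mb (2.78%). No other gene of that window was called. *Col5a3* and *Zfp426*, both lower, were the further calls among 126 genes within 10 Mb.

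*Slc39a14* (mm9 chr14:70703274-70751232), a zinc and iron transporter gene, had 6.349 and 6.995 RPKM in the *Miwi2*+/- libraries and 13.4 and 14.3 RPKM in those labelled *Miwi2*-/-, and *Polr3d* (mm9 chr14:70838555-70843278), a gene for an RNA polymerase III subunit, had 21.7 and 22.2 against 46.4 and 50.3 RPKM. Both lie on the strand of *Piwil2*, to either side of it. In the other lines' P10.5 controls without the preliminary batch, *Slc39a14* held 5.46 to 7.45 and *Polr3d* 24.7 to 29.3 RPKM, near or above the *Miwi2*+/- values and below those labelled *Miwi2*-/-. The log2 fold changes were 1.03 ± 0.073 (SE; adjusted p = 2.53e-05, edgeR) and 1.12 ± 0.071 (SE; adjusted p = 1.18e-05). *Bmp1*, a procollagen protease gene, was also higher, by 0.52 (adjusted p = 0.0245), and was not called in the fit with 3 lines (adjusted p = 0.152).

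*Phyhip* (mm9 chr14:70857283-70868639, plus strand) went the other way. It had 2.42 and 2.55 RPKM in the *Miwi2*+/- libraries and 0.959 and 0.957 RPKM in those labelled *Miwi2*-/-. The controls of the other lines held 0.531 to 0.749 RPKM, so that the *Miwi2*+/- pair stood farthest from them. *Phyhip* thus fell, with a log2 fold change of -1.39 ± 0.13 (SE; adjusted p = 0.000273, edgeR). *Entpd4*, a nucleotidase gene, fell by 0.43 on the log2 scale (adjusted p = 0.0178), a call lost in the fit with 3 lines (adjusted p = 0.412). Whether sequence linked to an allele or to a strain plays a part in these changes was not tested.

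**Figure D2:**
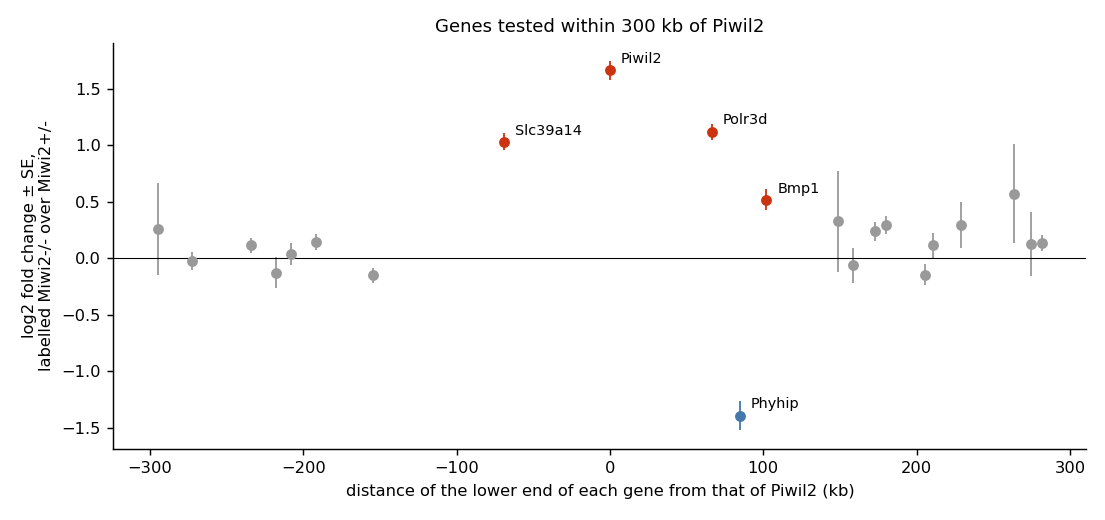
Log2 fold change of each gene tested within 300 kb of *Piwil2* (libraries labelled *Miwi2*-/- over *Miwi2*+/-, y axis, bars are SE) against the distance of its lower end from that of *Piwil2* in kb. *Slc39a14*, *Piwil2*, *Polr3d* and *Bmp1* lie above 0 and *Phyhip* below it, and grey genes were not called.

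The 300 bases before the annotated start of both PIWI genes are printed because these genes rose together. They were read from the mm9 genome at the coordinates of the deposited files, and capitals mark CG dinucleotides, the sites that DNA methylation acts on. The *Piwil2* window (mm9 chr14:70828902-70829201, minus strand) holds 15 of them, and 67.5% of all listed genes have fewer. The *Piwil4* window (mm9 chr9:14545178-14545477, minus strand) holds 5, and 38.7% of genes have fewer, where the median gene has 7.
Piwil2: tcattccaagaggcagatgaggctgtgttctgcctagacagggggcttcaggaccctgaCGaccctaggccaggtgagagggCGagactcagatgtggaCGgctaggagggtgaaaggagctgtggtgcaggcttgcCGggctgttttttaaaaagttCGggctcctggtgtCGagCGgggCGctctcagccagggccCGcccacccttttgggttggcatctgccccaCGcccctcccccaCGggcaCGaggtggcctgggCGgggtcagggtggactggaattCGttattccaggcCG
Piwil4: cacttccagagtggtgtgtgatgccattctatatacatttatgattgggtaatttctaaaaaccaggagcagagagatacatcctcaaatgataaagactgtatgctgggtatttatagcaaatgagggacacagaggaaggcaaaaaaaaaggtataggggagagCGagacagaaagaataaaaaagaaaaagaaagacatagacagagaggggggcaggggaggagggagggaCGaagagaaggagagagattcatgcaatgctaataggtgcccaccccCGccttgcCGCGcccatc

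Some genes rose in all 3 mutant lines, a set chosen after the values were seen. Of the 116 genes called higher in the libraries labelled *Miwi2*-/-, 19 (16.4%) were also called higher in *Morc1* KO testes in the fit with 3 lines, where 1.88% of all genes were, and 3 were called lower. In *Dnmt3l* KO testes, 55 (47.4%) were called higher and 34 lower, where 31.4% of all genes were called higher. All 19 that rose in *Morc1* KO testes rose in *Dnmt3l* KO testes too. The 19 made up 6.17% of the rises in *Morc1* KO testes, and the 55 made up 1.07% of those in *Dnmt3l* KO testes. In the fit with 3 lines, the rise in the *Miwi2* line was called for 14 of the 19. The 3 lines have separate controls.

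The clearest of these was *Clec2g* (ENSMUSG00000000248, mm9 chr6:128884399-128970537, plus strand), a gene for a C-type lectin-like membrane protein, which overlaps *Gm8778* on the other strand. It had 3 reads and no read in the *Miwi2*+/- libraries and 148 and 130 reads, or 1.36 and 1.23 RPKM, in the libraries labelled *Miwi2*-/-. The mutants of the other lines stood at the same level, with 0.956 to 1.52 RPKM in *Dnmt3l* KO and 0.975 to 1.39 RPKM in *Morc1* KO testes, while their controls held at most 0.038 RPKM. In the *Miwi2* line the ratio of reads was 92.1 (95% counting interval 31.2 to 449), with adjusted p = 2.11e-05 in edgeR. The effect did not pass the test of a difference from the *Dnmt3l* line (-0.34, adjusted p = 0.851) or from the *Morc1* line (-0.45, adjusted p = 0.935), on the log2 scale.

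*Mup3*, one of the genes for the major urinary proteins that the liver secretes, had no read in either *Miwi2*+/- library and 45 and 68 reads in those labelled *Miwi2*-/-. Against a floor of 3 reads over the group it was at least 37.4-fold higher (adjusted p = 0.000665, edgeR). The mutants of the other lines held 0.234 to 0.383 RPKM (*Dnmt3l* KO) and 0.569 to 1.13 RPKM (*Morc1* KO), against 1.09 and 1.69 RPKM here. Whether reads from other urinary protein genes were counted with it was not tested.

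*Tmc2*, which encodes a part of the mechanosensory channel of inner ear hair cells, had 0.044 and 0.084 RPKM in the *Miwi2*+/- libraries and 0.539 and 0.783 RPKM in those labelled *Miwi2*-/-, a log2 fold change of 3.33 ± 0.35 (SE; adjusted p = 0.000686, edgeR). *Dnmt3l* KO testes held 0.477 to 0.774 RPKM and *Morc1* KO testes 0.0999 to 0.198 RPKM, and no P10.5 control of these lines held over 0.039 RPKM. *BC051019* had 0.155 and 0.148 against 1.68 and 1.89 RPKM, with 1.09 to 1.61 RPKM in *Dnmt3l* KO and 1.96 to 2.19 RPKM in *Morc1* KO testes. The plasma vitamin D carrier gene *Gc* had no read in the *Miwi2*+/- libraries and 0.968 or 0.658 RPKM in those labelled *Miwi2*-/-. Its fitted effect was larger than in the *Dnmt3l* line (adjusted p of the difference = 0.0398).

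**Figure D3:**
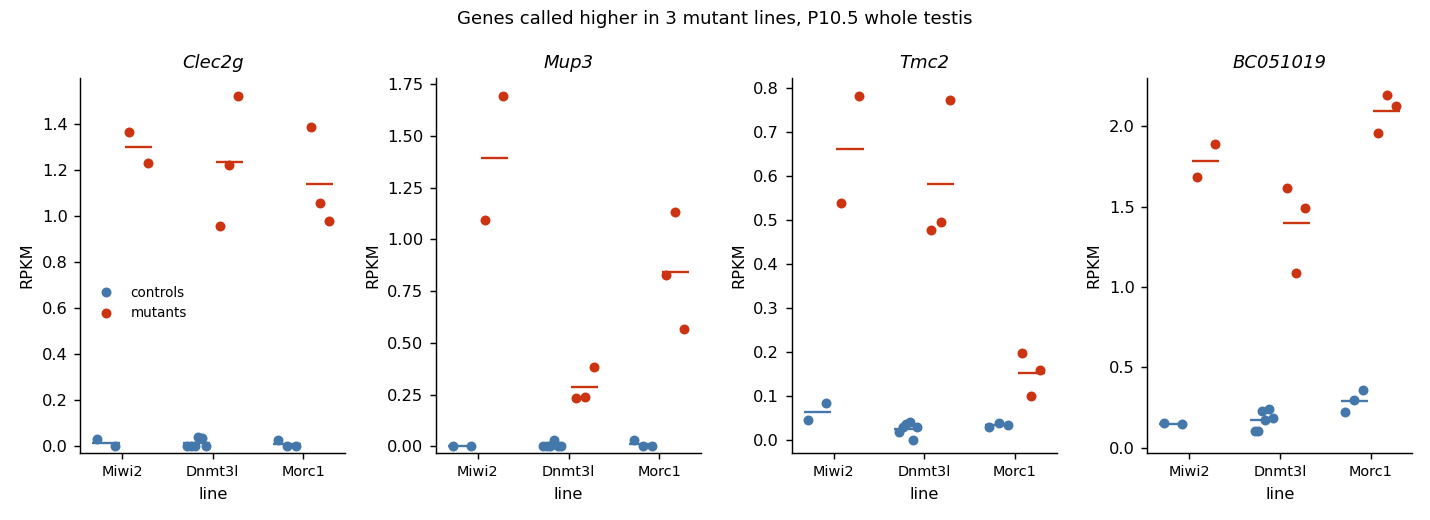
Levels of *Clec2g*, *Mup3*, *Tmc2* and *BC051019* in RPKM in each P10.5 whole testis library of the 3 lines without the preliminary batch. Blue points are controls, red points are mutants (for the *Miwi2* line, the libraries labelled *Miwi2*-/-), and bars are means. In each panel and line every mutant library lies above every control, as for *Clec2g* with 1.23 and 1.36 RPKM in the libraries labelled *Miwi2*-/-. The genes were picked from those called higher in all 3 lines, so this order follows in large part from the choice.

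The rest of the 19 rose by less or from a low level. *Cdh12*, *Col19a1*, *Tmem40*, *Clca4* and *9530008L14Rik* stayed under 1 RPKM in all 4 libraries. More abundant members were *Vcam1*, a cell adhesion gene with 21.1 and 20.0 against 27.7 and 25.4 RPKM (log2 fold change 0.35, adjusted p = 0.0402, edgeR), the basement membrane collagen gene *Col15a1* (0.41), the amino acid transporter gene *Slc7a8* (0.46) and the aldehyde dehydrogenase gene *Aldh3a1* (0.59). *Cx3cr1*, a chemokine receptor gene of macrophages, rose by 0.58, and the transcription factor gene *Sall2* by 0.43. *Chst2* and *Cd209c* were also among them. *Vcam1*, *Col15a1*, *Cx3cr1* and *Chst2* were not called for the *Miwi2* line in the fit with 3 lines.

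Among the 81 genes called lower, 15 were also lower in *Dnmt3l* KO testes and 20 were higher, where 27.8% of all genes were lower. In *Morc1* KO testes 7 (8.64%) were lower and 3 higher, where 6.2% of all genes were lower. The 5 that fell in all 3 lines were *Fbxo15*, *Mastl*, *Gm364*, *Gm15107* and *4930528F23Rik*. In the fit with 3 lines, *Fbxo15* alone was called for the *Miwi2* line (adjusted p = 0.0282, edgeR). The others had adjusted p from 0.108 for *Gm15107* to 0.451 for *Gm364*. *Fbxo15*, an F-box gene known from embryonic stem cells that overlaps *1700034H14Rik* on the other strand, had 3.79 and 3.46 RPKM in the *Miwi2*+/- libraries and 2.06 and 1.84 RPKM in those labelled *Miwi2*-/-. Its log2 fold change was -0.91 here, -1.10 in *Dnmt3l* KO and -0.75 in *Morc1* KO testes.

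The 300 bases before *Clec2g* (mm9 chr6:128884099-128884398, plus strand) and *Tmc2* (mm9 chr2:130020630-130020929, plus strand) are shown because these genes rose in all 3 lines. Capitals again mark CG dinucleotides, of which the windows hold 4 and 10.
Clec2g: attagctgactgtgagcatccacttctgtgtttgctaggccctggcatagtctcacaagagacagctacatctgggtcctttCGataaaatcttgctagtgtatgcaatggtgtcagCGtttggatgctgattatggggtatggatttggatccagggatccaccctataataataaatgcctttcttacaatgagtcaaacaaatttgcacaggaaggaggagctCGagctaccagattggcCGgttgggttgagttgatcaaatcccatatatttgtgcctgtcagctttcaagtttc
Tmc2: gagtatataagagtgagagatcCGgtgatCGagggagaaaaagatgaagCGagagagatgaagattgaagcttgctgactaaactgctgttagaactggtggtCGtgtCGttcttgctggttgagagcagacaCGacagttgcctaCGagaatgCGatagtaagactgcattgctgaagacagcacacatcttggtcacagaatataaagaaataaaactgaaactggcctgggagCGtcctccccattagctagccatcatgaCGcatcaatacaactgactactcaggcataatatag

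Of the genes that the study's own text follows as targets of MORC1, and which were looked up after the results were known, *Tmc2* was called higher, as described above. *Cdkl4*, a kinase gene, had 0.095 and 0.099 RPKM in the *Miwi2*+/- libraries and 0.248 and 0.286 RPKM in those labelled *Miwi2*-/-. The groups did not overlap, as for 52.1% of all genes tested, and the log2 difference of 1.43 did not pass (adjusted p = 0.0624, edgeR). The muscle gene *Neb* had 0.843 and 1.20 against 0.956 and 1.54 RPKM, with overlapping groups and a log2 difference of 0.28 (adjusted p = 0.48).

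Immediate early genes encode transcription factors and other proteins that are switched on within minutes of a stimulus. Of the 20 tested, 4 were higher and none was lower, where 0.725% of all genes tested were higher and 0.506% lower. The median log2 fold change was 0.13. *Egr1*, a zinc-finger transcription factor gene, had 10.1 and 10.6 RPKM in the *Miwi2*+/- libraries and 26.4 and 25.4 RPKM in those labelled *Miwi2*-/-. The controls of the other lines, at 11.9 to 20.9 RPKM, lay between the groups. The log2 fold change was 1.31 ± 0.065 (SE; adjusted p = 1.42e-06, edgeR).

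*Fos* and *Junb*, which encode parts of the transcription factor AP-1, also rose. *Fos* had 2.54 and 2.07 against 4.97 and 5.25 RPKM, and *Junb* had 2.49 and 2.58 against 5.42 and 5.29 RPKM. Neither overlapped between the groups, as held for 52.1% of all genes tested (29.7% with the libraries labelled *Miwi2*-/- higher). Their log2 fold changes were 1.13 ± 0.13 (SE; adjusted p = 0.000868, edgeR) and 1.06 ± 0.11 (SE; adjusted p = 0.000665). The nuclear receptor gene *Nr4a1* had 15.5 RPKM in both *Miwi2*+/- libraries and 22.9 and 23.8 RPKM in those labelled *Miwi2*-/-, a log2 fold change of 0.58 (adjusted p = 0.000878). For *Junb* (2.35 to 7.89 RPKM) and *Nr4a1* (11.3 to 26.7 RPKM) both groups lay within the range of the other lines' controls. For *Fos* (1.92 to 4.48 RPKM) the *Miwi2*+/- libraries alone did. *Dnmt3l* WT replicate 2 alone set the top of each of these ranges. The next highest control held 3.35 RPKM of *Junb*, 14.8 of *Nr4a1* and 3.06 of *Fos*. These levels lay below both libraries labelled *Miwi2*-/-, and for *Nr4a1* also below both *Miwi2*+/- libraries. In the fit with 3 lines *Egr1* was still called (adjusted p = 0.0107), and *Fos* (0.123), *Junb* (0.327) and *Nr4a1* (0.477) were not, by their adjusted p. *Jun*, also an AP-1 gene, had 16.8 and 17.3 against 20.2 and 19.7 RPKM and was not called (adjusted p = 0.114).

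The 300 bases before *Fos* (mm9 chr12:86814540-86814839, plus strand), *Junb* (mm9 chr8:87502618-87502917, minus strand) and *Nr4a1* (mm9 chr15:101096977-101097276, plus strand) are shown because these genes rose together. Capitals mark TGACG on either strand, the core of the site that CREB and related factors can bind. It was found 3 times for *Fos*, 1 time for *Junb* and 4 times for *Nr4a1*. It lay in the windows of 11 of the 20 immediate early genes and of all 4 called, against 4136 of the 15997 genes tested (25.9%). It also lay in the windows of 11 of the 17 cholesterol synthesis genes (64.7%), a list with no called rise. The full palindrome TGACGTCA was in 3 of the 20 windows and in none of the 4 called, against 2.41% of genes tested. The CArG box, a run of A or T between CC and GG, was in 2 of the 20 and in none of the 4 called. Of all genes tested, 1.42% had it.
Fos: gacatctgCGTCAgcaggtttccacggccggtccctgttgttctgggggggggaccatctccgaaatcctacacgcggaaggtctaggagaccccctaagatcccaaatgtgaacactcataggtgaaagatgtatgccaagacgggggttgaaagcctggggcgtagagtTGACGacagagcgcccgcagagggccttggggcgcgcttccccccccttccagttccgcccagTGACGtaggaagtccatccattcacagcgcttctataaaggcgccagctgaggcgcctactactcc
Junb: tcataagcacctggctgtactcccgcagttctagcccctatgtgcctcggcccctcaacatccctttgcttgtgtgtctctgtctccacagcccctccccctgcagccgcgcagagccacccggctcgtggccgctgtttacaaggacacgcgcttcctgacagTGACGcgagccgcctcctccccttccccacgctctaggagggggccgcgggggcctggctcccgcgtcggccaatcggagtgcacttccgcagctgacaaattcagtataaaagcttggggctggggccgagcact
Nr4a1: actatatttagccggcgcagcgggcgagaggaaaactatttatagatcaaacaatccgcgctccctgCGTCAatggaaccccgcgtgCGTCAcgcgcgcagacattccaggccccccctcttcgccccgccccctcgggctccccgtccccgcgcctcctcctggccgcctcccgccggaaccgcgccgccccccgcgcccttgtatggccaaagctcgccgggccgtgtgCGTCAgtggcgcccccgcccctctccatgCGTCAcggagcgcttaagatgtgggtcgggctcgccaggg

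The germ cell lists held few calls, where 1.23% of all genes tested were called. Of 9 general germ cell genes 1 was higher, which was *Piwil2* itself, and the median was -0.02. DESeq2 without its independent filter called 3 of them. Of 19 genes of undifferentiated spermatogonia, the stem and progenitor cells of the testis, *Pou5f1* was lower and the rest were not called. This pluripotency factor gene had 8.78 and 7.79 RPKM against 5.43 and 5.72 RPKM, a log2 fold change of -0.59 (adjusted p = 0.0263, edgeR), which did not pass in the fit with 3 lines (adjusted p = 0.164). No gene was called among 11 of differentiating spermatogonia (median 0.11), 24 of early meiosis (median -0.12) and 9 of later spermatocytes (median -0.04). At an unadjusted p under 0.05 in edgeR these held 5, 8 and 2, where 20.2% of all genes tested reached it. DESeq2 without its independent filter called 2, 0 and 0, where it called 1.48% of all genes. *Stra8*, the gene that opens meiosis, had 82.4 and 79.8 against 67.0 and 70.3 RPKM (adjusted p = 0.0904).

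For early meiosis, replicates differed more than groups in the summed level of the list, with 426.4 and 484.0 against 391.5 and 465.9 RPKM. Of the 24 genes, 6 had a positive log2 fold change. The groups lay apart for 7 lower genes and 1 higher gene, where 22.4% and 29.7% of all genes tested did so. With a replicate block some of them were called, as given at the end. *Sycp1*, a component of the synaptonemal complex that joins paired chromosomes, had 20.9 and 46.6 RPKM in the *Miwi2*+/- libraries and 19.9 and 42.1 RPKM in those labelled *Miwi2*-/-. Replicate 1 was the lower one in both groups. In fits without 1 library at a time, the median log2 fold change of the list lay between -0.24 and 0.01.

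The same lists moved in the other mutants. In the fit with 3 lines, 22 of the 24 early meiosis genes were lower in *Dnmt3l* KO testes (median -1.34), where 27.8% of all genes were, and 21 in *Morc1* KO testes (median -0.85), where 6.2% of all genes were. The effect in the *Miwi2* line was higher than in the *Dnmt3l* line for 21 and lower for 2 by the test of the difference, and higher than in the *Morc1* line for 8. Over all genes, 18.2% had a higher and 17.7% a lower effect than in the *Dnmt3l* line, and 1.64% a higher one than in the *Morc1* line. Of the 11 genes of differentiating spermatogonia, the difference was called as higher for 10 against *Dnmt3l* and for 7 against *Morc1*. Sertoli cell genes, from the cells that nurse the germ cells, had 0 of 19 called in the *Miwi2* line (median 0.10). At an unadjusted p under 0.05 in edgeR there were 8, where 20.2% of all genes tested reached it, and 1 was called in DESeq2. In *Dnmt3l* KO testes 16 were higher (median 0.57; 31.4% of all genes), and the difference was called as lower for 11.

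**Figure D4:**
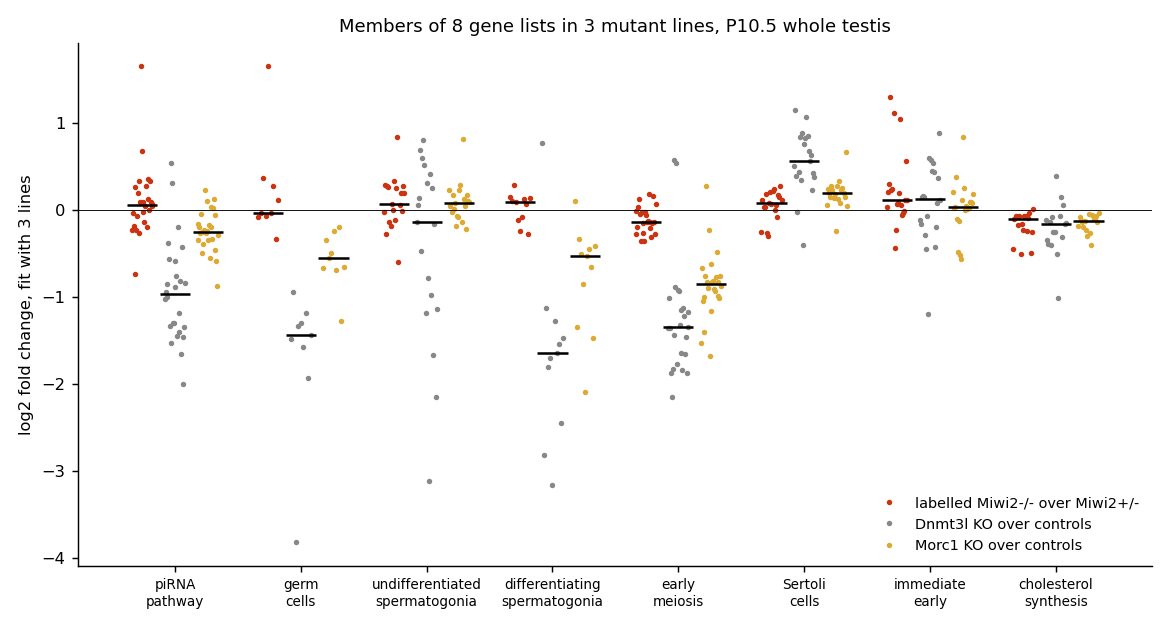
Log2 fold change over controls (y axis) of each member of 8 gene lists in the 3 mutant lines, from the fit with 3 lines. Each point is a gene and black bars are medians. Medians of early meiosis genes are -1.34 for *Dnmt3l* KO and -0.85 for *Morc1* KO. Those of the *Miwi2* line lie between -0.13 (early meiosis) and 0.12 (immediate early) in the 8 lists.

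Lists for silencing and stress held no call in the fit without a replicate block, where 1.23% of all genes tested were called. None was called among 13 genes of DNA methylation, 12 of histone H3K9 methylation, 4 of the Morc family, 22 imprinted genes, 25 of interferon and nucleic acid sensing, 19 of p53 and apoptosis, 11 of heat shock, 17 of the retinoic acid pathway or 22 of the cell cycle. At an unadjusted p under 0.05 in edgeR, these lists held, in the same order, 4, 3, 0, 6, 5, 2, 6, 4 and 8 genes. Over all genes tested, 20.2% reached it. DESeq2, run without its independent filter, called 2 genes of DNA methylation, 2 imprinted genes, 1 of heat shock and 1 of the retinoic acid pathway, and none of the others. It called 1.48% of all genes. *Morc1* had 14.9 and 14.0 against 14.0 and 13.2 RPKM, and *Dnmt3l* 0.821 and 0.849 against 0.601 and 0.795 RPKM. Genes of peritubular cells, endothelial cells, macrophages and skeletal muscle were likewise not called in edgeR, with 2, 3, 4 and 2 at an unadjusted p under 0.05 and 1 endothelial gene called in DESeq2.

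Of 17 genes of cholesterol synthesis, 3 were called lower and none higher, where 0.506% of all genes tested were lower. In this list 1 gene had a positive log2 fold change. The median was -0.09, and it was -0.17 without *Miwi2*+/- replicate 2 and also without *Miwi2*-/- replicate 1. *Idi1*, the isomerase gene of isoprenoid synthesis, had 29.0 and 28.4 RPKM in the *Miwi2*+/- libraries and 20.6 and 20.7 RPKM in those labelled *Miwi2*-/- (log2 fold change -0.49, adjusted p = 0.00284, edgeR). The sterol demethylation genes *Sc4mol* (-0.48) and *Cyp51* (-0.44) also fell.

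*Star*, whose product brings cholesterol into the mitochondria of Leydig cells for steroid synthesis, was the 1 gene called of 14 Leydig cell genes. Over all genes tested, 1.23% were called. *Star* had 45.0 and 41.0 RPKM in the *Miwi2*+/- libraries and 31.9 and 32.2 RPKM in those labelled *Miwi2*-/-, all above the 6.67 to 23.4 RPKM of the other lines' controls. The log2 fold change was -0.44 (adjusted p = 0.0128, edgeR), and the median of the list was -0.14. Without *Miwi2*+/- replicate 2, 5 Leydig cell genes were called, and without *Miwi2*-/- replicate 1, 2 were, where 5.85% and 2.09% of all genes were called. *Star* and all 3 cholesterol genes lost their calls in the fit with 3 lines, with adjusted p from 0.0675 for *Idi1* to 0.771 for *Star*. *Postn*, a matrix gene of stromal cells, fell by 0.43 on the log2 scale and was the 1 call among 10 stromal genes. This call was lost in the fit with 3 lines (adjusted p = 0.451, edgeR). DESeq2 without its independent filter called 5 of the 10, where it called 1.48% of all genes.

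Among genes with at least 1 RPKM in the higher group, the largest called falls were in genes of fat cells. Of the 8 fat genes tested, 5 were lower and none was higher, where 0.506% of all genes tested were lower. The median log2 fold change of the list was -3.65. *Fabp4*, the fatty acid carrier gene of adipocytes, had 20.2 and 17.2 RPKM in the *Miwi2*+/- libraries and 0.930 and 1.17 RPKM in those labelled *Miwi2*-/-. The *Miwi2*+/- pair stood alone, since the controls of the other lines held 0.481 to 1.76 RPKM. Its log2 fold change was -4.17 ± 0.17 (SE; adjusted p = 5e-07, edgeR).

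*Car3*, a carbonic anhydrase gene abundant in fat, had 4.07 and 3.69 against 0.060 and 0.232 RPKM, and the adipokine gene *Adipoq* had 2.07 and 1.97 against 0.158 and 0.090 RPKM. The hormone gene *Retn* had 1.56 and 1.65 against 0.162 and 0.166 RPKM. *Cfd*, which encodes adipsin, had 36 reads over the *Miwi2*+/- libraries and 2 over those labelled *Miwi2*-/-, a ratio of 18.1 (95% counting interval 4.66 to 155). The lipid droplet gene *Plin1*, at 4.78 to 5.56 RPKM, and the lipase gene *Lpl*, at 9.67 to 14.4 RPKM over the 4 libraries, were not called. The summed level of the fat list was 44.3 RPKM in both *Miwi2*+/- libraries, 18.8 and 21.3 RPKM in those labelled *Miwi2*-/- and 9.64 to 43.0 RPKM in the other lines' controls. In the fit with 3 lines *Fabp4*, *Car3*, *Adipoq* and *Retn* were still called, and *Cfd* was not (adjusted p = 0.189). *Cfd* also lost its call without a filter on low counts (adjusted p = 0.0537, edgeR) and in DESeq2 without its independent filter (adjusted p = 0.0808). The part of fat cells in the comparison was not tested.

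Of 12 listed genes of the epididymis, the duct next to the testis, 5 had enough reads to be tested. Of these, 3 were higher and none was lower, where 0.725% of all genes tested were higher. *Crisp1*, a secreted protein gene of the epididymis that overlaps *Crisp3* on the same strand, had 2.52 and 2.81 RPKM in the *Miwi2*+/- libraries and 10.1 and 10.2 RPKM in those labelled *Miwi2*-/-. This level varied between mice of other lines, from 0.016 to 34.3 RPKM over the *Dnmt3l* controls and 0 in the *Morc1* controls. The log2 fold change was 1.90 ± 0.11 (SE; adjusted p = 7.26e-06, edgeR).

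The beta-defensin gene *Defb42*, which overlaps *Defb30* on the other strand, had 1.42 and 1.55 against 3.85 and 4.31 RPKM, and the duct transcription factor gene *Pax2* had 0.073 and 0.065 against 0.195 and 0.214 RPKM. In the fit with 3 lines no gene of the list was called, with adjusted p of 0.64 for *Crisp1*, 0.29 for *Defb42* and 0.127 for *Pax2*. *Pax2* also lost its call without a filter on low counts (adjusted p = 0.0537, edgeR) and in DESeq2 without its independent filter (adjusted p = 0.149). The defining genes *Adam7*, *Lcn5*, *Lcn8*, *Lcn9*, *Rnase10*, *Spint4* and *Bsph1* were not tested and had 0 to 19 reads over the 4 libraries together, with *Bsph1* at 0. The summed level of the list was 7.42 and 7.49 RPKM in the *Miwi2*+/- libraries, 16.9 and 18.0 RPKM in those labelled *Miwi2*-/- and 2.21 to 45.2 RPKM in the controls of the other lines. The part of epididymis in the comparison was not tested.

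The largest called rises also held genes that are on no list used here, and these were not tested as a group. *Defb40*, a beta-defensin gene, had 1 read over both *Miwi2*+/- libraries and 94 and 91 reads in those labelled *Miwi2*-/-, a ratio of 184 (95% counting interval 32.6 to 7301; adjusted p = 2.3e-05, edgeR). *Serpina1f*, a serpin gene, had 0.082 and 0.079 against 3.439 and 3.602 RPKM (log2 fold change 5.42). The antimicrobial protein genes *Wfdc15b* (3.73), *Defb2* (3.57) and *Defb11* (4.32) and the gene *2300002M23Rik* (4.46) also rose on the log2 scale. All of these 6 lost their calls in the fit with 3 lines. Their highest levels among *Dnmt3l* controls were 13.2 RPKM for *Defb40*, 7.15 for *Serpina1f*, 16.4 for *Wfdc15b*, 6.48 for *Defb2*, 2.24 for *Defb11* and 20.9 for *2300002M23Rik*, and each of the 6 held at most 0.024 RPKM in the *Morc1* controls. In *Dnmt3l* het replicate 2, which held these levels of *Defb40* and *Serpina1f*, *Defb42* had 7.84 and *Crisp1* 24.2 RPKM. The highest *Crisp1* level, 34.3 RPKM, was in *Dnmt3l* WT replicate 1, with 0 RPKM of *Defb40*. Whether these genes move together was not tested.

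Of 7 red blood cell genes tested, 1 was called higher and none lower, where 0.725% of all genes tested were called higher. The called gene was *Hba-a1*, an alpha globin gene nearly identical to *Hba-a2*, with 17.2 and 16.53 against 25.9 and 24.7 RPKM (log2 fold change 0.57, adjusted p = 0.00973, edgeR). It was not called in the fit with 3 lines (adjusted p = 0.655). The median of the list was 0.46, and it was 0.24 without *Miwi2*+/- replicate 2 and 0.22 without *Miwi2*-/- replicate 1. The summed level was 156.8 and 182.4 RPKM in the *Miwi2*+/- libraries and 194.5 and 216.1 RPKM in those labelled *Miwi2*-/-, above the 28.3 to 105.1 RPKM of the other lines' controls. The calls numbered 3 without *Miwi2*+/- replicate 1, 2 without *Miwi2*-/- replicate 1 and 3 without *Miwi2*-/- replicate 2, where 2.58%, 2.09% and 2.11% of all genes were called. The part of blood in the comparison was not tested.

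**Figure D5:**
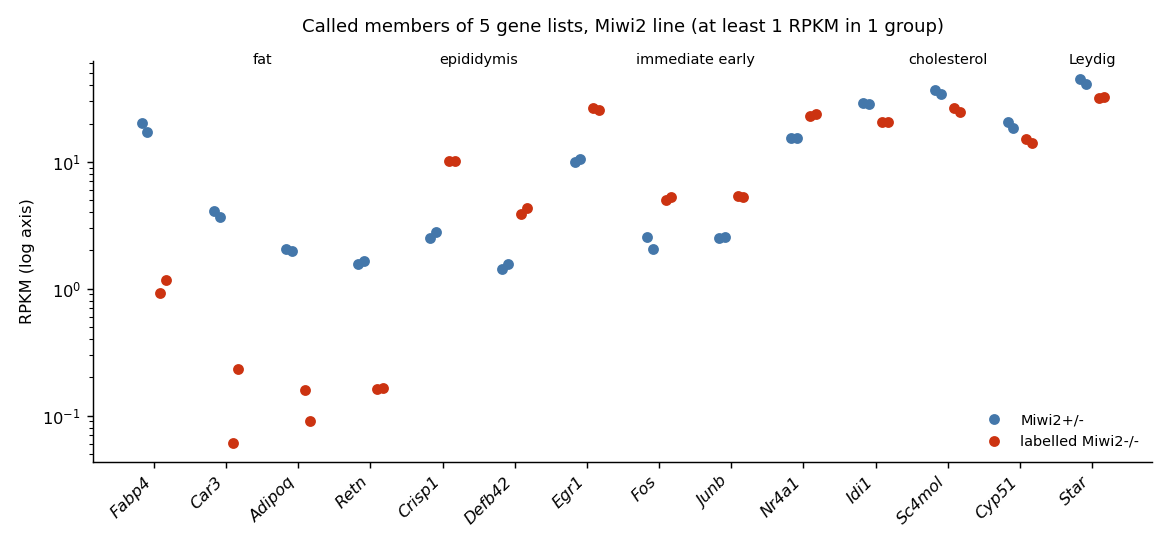
Levels in RPKM (log axis) in each library of the *Miwi2* line of the called members of 5 gene lists with at least 1 RPKM in 1 group, which leaves out *Cfd* and *Pax2*. Blue points are *Miwi2*+/- and red points are libraries labelled *Miwi2*-/-. *Fabp4* falls from 20.2 and 17.2 to 0.930 and 1.17 RPKM and *Egr1* rises from 10.1 and 10.6 to 26.4 and 25.4 RPKM. No gene shown overlaps between groups, and neither do 52.1% of all genes tested.

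A few called genes also differed in level between the controls of the lines. *Gm5506*, an enolase-like gene with near-identical copies, had 0.119 and 0.190 RPKM in the *Miwi2*+/- libraries and 13.5 and 12.0 RPKM in those labelled *Miwi2*-/- (log2 fold change 6.32 ± 0.18 SE, adjusted p = 3.09e-08, edgeR). In P10.5 testis, all genotypes of the *Dnmt3l* line were at the low level, with 0.036 to 0.173 RPKM, and all of the *Morc1* line at a high one, with 25.6 to 31.4 RPKM outside the preliminary batch. Sorted germ cells of the *Morc1* line at P10.5, which were also sequenced from total RNA, held 0.971 to 3.59 RPKM. *Akd1*, an adenylate kinase gene, had 0.114 and 0.159 against 1.90 and 2.09 RPKM, while the *Dnmt3l* controls held 0.096 to 0.322 RPKM and the *Morc1* controls 1.28 to 1.43 RPKM. *Akd1* also rose in *Dnmt3l* KO testes, to 0.548 to 0.754 RPKM (log2 fold change 1.69, adjusted p = 1.59e-05, edgeR). *Gm10653*, which overlaps *Cln6* and *Calml4* on the other strand, went the opposite way, with 4.23 and 3.64 against 0.498 and 0.736 RPKM, and held 0.357 to 0.499 RPKM in *Dnmt3l* controls and 6.10 to 6.72 RPKM in *Morc1* controls. *Sfi1*, a centrosome gene with many copies that was picked after its values were seen, rose from 7.57 and 9.12 to 24.4 and 34.4 RPKM. It had 5.89 to 7.51 RPKM in *Dnmt3l* controls and 9.499 to 14.9 RPKM in *Dnmt3l* KO testes, and 14.6 to 14.8 RPKM in *Morc1* controls and 18.0 to 20.6 RPKM in *Morc1* KO testes.

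Set against the 9 controls of the other lines, either group could be the one that stood apart. Of the 116 genes called higher, 45 had both groups within the range of these controls, 33 had the *Miwi2*+/- libraries alone within it, 18 had those labelled *Miwi2*-/- alone within it and 20 had neither. Of the 81 called lower, the counts were 16, 5, 28 and 32. Over all genes tested, the shares were 31.9%, 6.99%, 15.6% and 45.5% in the same order. Among the genes with the *Miwi2*+/- pair alone outside the range were *Fabp4*, *Car3* and *Gtsf1*.

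The remaining large changes were in genes of varied roles. *Reg2*, a secreted lectin gene of the pancreas, had 1 read over the *Miwi2*+/- libraries and 36 and 45 reads in those labelled *Miwi2*-/-, a ratio of 80.5 (95% counting interval 14.0 to 3218). *Pcp4*, a calmodulin-binding protein gene that overlaps *Igsf5* on the same strand, had 3 reads against 76 and 64, a ratio of 46.4 (15.5 to 228). Counting intervals cover counting error only. Among the falls, *Rims2*, a synaptic vesicle gene, had 1.22 and 1.26 against 0.598 and 0.466 RPKM, the T cell receptor gene *Trac* 8.03 and 8.09 against 4.53 and 3.17 RPKM, and the secreted protein gene *Clca1* 2.65 and 2.66 against 1.47 and 1.41 RPKM. *Tmem181b-ps* (log2 fold change -1.25), which overlaps *Gm2792* on the same strand, and *G530011O06Rik* (-1.24), which overlaps *Mid1* on the other strand, also fell, the latter close to the threshold (adjusted p = 0.0457, edgeR). *Rims2* (adjusted p = 0.132), *Trac* (0.0906), *Clca1* (0.122) and *G530011O06Rik* (0.0686) lost their calls in the fit with 3 lines. *G530011O06Rik* also lost its call in edgeR with upper quartile scaling (adjusted p = 0.0522), without a filter (0.059) and with a stricter one (0.0573).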

How the data were processed

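For each library, the authors deposited raw counts, the reads that fall on each gene, and beside them RPKM values, which the authors made by scaling the count to exon length and mapped reads. Per the methods, reads were trimmed to 50 bp and kept where they had a unique place in mm9. The submitters' processing notes list HTSeq and Bowtie, and no source used here names the aligner for genes. The authors tested genes with DESeq. The quasi-likelihood test of edgeR 4.0.16, in R 4.3.3, was run on counts (TMM, filterByExpr, Benjamini-Hochberg adjustment over all genes tested, threshold 0.05) of the 4 libraries of the *Miwi2* line. Effects were compared between lines as contrasts in 1 fit of the 19 P10.5 testis libraries, with WT and het pooled as controls and the preliminary batch left out. Each mouse gave 1 library, and 2 against 2 libraries allow no exact permutation p under 0.333, so no such test is given.

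The genes named were *Piwil4*, the 12 largest called rises and 12 largest called falls with groups apart and at least 1 RPKM in the higher group, every called member of 27 gene lists, the piRNA genes, and in each contrast between lines the 3 largest differences in each direction among genes also called in the *Miwi2* line. The members, lists and rule were chosen with earlier results of these data known. *Tmc2*, *Cdkl4*, *Neb*, *Sfi1*, the neighbours of *Piwil2* and the genes shared by 3 lines were chosen after their values were seen. Where a group had no read, the fold was computed with a floor of 3 reads over that group, and intervals of ratios are 95% and exact. Alternatives were other normalizations and filters, DESeq2 1.42.0, a replicate block, a spread shared by 3 lines, other controls and windows, and each library left out. The procedure was tested on simulated data. A few single genes are not reported here.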

Additional observations from a re-analysis of the deposited data

Results flagged for a closer look

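The effect of the labelled genotype differed between lines, by the edgeR test of the difference, in 12 results that also concern genes called in the *Miwi2* line. Directions follow the labels, and log2 values fitted against groups with no read depend on the prior count and are no measure of size.

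Against the *Dnmt3l* line, the *Miwi2* effect was higher for *Defb40* (difference 15.34 on the log2 scale, adjusted p = 0.0163), *2300002M23Rik* (13.72, adjusted p = 0.0026) and *Wfdc15b* (13.34, adjusted p = 0.00416). *Defb40* had 0 reads in all 3 *Dnmt3l* KO libraries and lost its call without *Miwi2*+/- replicate 1 (adjusted p = 0.0589) and without *Miwi2*+/- replicate 2 (adjusted p = 0.0618). In the fit with 3 lines, the *Miwi2* effect itself was not called for *Defb40* (adjusted p = 0.344, edgeR), *2300002M23Rik* (0.375) or *Wfdc15b* (0.363). The *Dnmt3l* effect was called lower for each. Reads of *Defb40* in the *Dnmt3l* controls lay mostly in het replicate 2 (184) and WT replicate 3 (28). The *Miwi2* effect was lower than the *Dnmt3l* effect for *Gm8420* (-8.14, adjusted p = 0.0011), *Adamdec1* (-6.68, adjusted p = 0.00521) and the mast cell tryptase gene *Tpsab1* (-5.39, adjusted p = 0.00284). Over the *Miwi2*+/- libraries and those labelled *Miwi2*-/-, these genes had 23 and 0, 59 and 1, and 36 and 3 reads. For *Gm8420* the *Miwi2*+/- libraries were at least 7.71-fold higher. Its call in the *Miwi2* line was lost without a filter (adjusted p = 0.0617, edgeR) and in DESeq2 without its independent filter (adjusted p = 0.0608). *Tpsab1* was not called in the *Miwi2* line in the fit with 3 lines (adjusted p = 0.158, edgeR) or without a filter (adjusted p = 0.073, edgeR). DESeq2 without its independent filter did not call it either (adjusted p = 0.102). Its log2 fold change was -3.49 in the first fit and -2.57 without *Miwi2*-/- replicate 2. *Adamdec1* lies within 5 Mb of *Piwil2*.

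Against the *Morc1* line, the *Miwi2* effect was higher for *Gm5506* (6.24, adjusted p = 4.41e-12), *Akd1* (3.80, adjusted p = 0.000193) and *Piwil2* (1.89, adjusted p = 2.59e-07). In *Morc1* KO testes these genes had log2 effects of 0.08, 0.03 and -0.24. It was lower for *Gm8420* (-8.23, adjusted p = 0.0235), *Car3* (-5.93, adjusted p = 0.0152) and *Fabp4* (-5.49, adjusted p = 0.000193). *Gm8420* lost this call without any 1 of the 4 libraries (adjusted p = 0.064 to 0.0972), and *Car3* lost it without *Miwi2*+/- replicate 1 (adjusted p = 0.0627) and without *Miwi2*-/- replicate 1 (adjusted p = 0.0758).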

How the results depend on the processing

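The 197 calls became 391 with DESeq2 (116 higher and 275 lower, of 6656 genes that its filter kept, 65 shared), 306 with DESeq2 without that filter, chosen after seeing the data (142 higher, 167 shared), 110 with the spread of 3 lines (45 higher, 75 shared) and 340 to 952 without 1 library, where 952 without *Miwi2*+/- replicate 2 split into 266 higher and 686 lower. They were 234 and 215 with other scalings, 153 without a filter and 175 with a stricter one. No called gene changed sign. The share of higher calls was 58.9%, and 29.7% and 46.4% with the DESeq2 tests and 40.9% with the spread of 3 lines. With a replicate block there were 4503 calls (28.1% of genes tested, 49.2% of them higher, all 197 shared), and 13 of the 26 piRNA, 12 of the 24 early meiosis and 4 of the 9 germ cell genes were called. Samples share only a number, and the deviations of the 2 same-numbered pairs correlated at r = 0.31. Between groups, the chi-square per gene was 17.4 and 12.5 for same-numbered libraries and 23.3 and 21.4 for the others. Calls of list members, 23 in the first fit, were 36 and 37 with the DESeq2 tests, 161 with the replicate block, 8 with the spread of 3 lines and 28 to 50 without 1 library. The 358 differences from the *Morc1* line became 174 with het controls only, 1094 with those lines alone, 55 with a line and replicate block and 59 to 110 without 1 library. Genes called near *Piwil4* were 3 within 10 Mb and 3 within 20 Mb. Changes of sign in single genes were all in values not called, which were *Tdrd7* (-0.0073 without a filter, -0.0069 with a stricter one) and, with their ranges without 1 library, *Tex15* (-0.15 to 0.35), *Spocd1* (-0.33 to 0.36), *Ddx4* (-0.0694 to 0.0243), *Pnldc1* (-0.11 to 0.074), *Tdrd7* (-0.028 to 0.042), *Tex19.1* (-0.023 to 0.14), *Mael* (-0.14 to 0.012) and *Piwil1* (-0.010 to 0.21). Of 27 list medians, 12 changed sign in at least 1 setting, to values between -0.041 and 0.058, among them those of the piRNA (-0.00066 to 0.089 without 1 library), germ cell (-0.016 to 0.053) and early meiosis (-0.24 to 0.0089) lists. Of 46 named called genes, 26 lost their call with the spread of 3 lines and 6 without a filter. The causes were not tested.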
